A study of Arabidopsis thaliana with 8 samples.

Results

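The 10 genes described here are known marks of mitochondrial stress in Arabidopsis thaliana, in which signals from the mitochondrion change transcription in the nucleus. They were taken by locus from a list of genes known for this retrograde response, and all 10 were found among the 36799 genes of the count tables. They are AOX1A (AT3G22370), AOX1B (AT3G22360), AOX1C (AT3G27620), AOX1D (AT1G32350), NDB2 (AT4G05020), NAC13 (AT1G32870), NAC17 (AT1G34190), UPOX (AT2G21640), BCS1 (AT3G50930, also called OM66) and AT5G51440. Expression was measured by poly(A) RNA-seq in 8 libraries of whole seedlings kept in the dark for 3 days. The seedlings came from a pair of lines, each mutated at more than one subunit of pyruvate dehydrogenase (PDC), which turns pyruvate into acetyl-CoA. The line called e1e2 here carries e1-2-2 and e2-2 (numbered 17), and the line called e2e3 carries e2-2 and e3-2-2 (numbered 67), so that both carry e2-2. Each was given hydrocarbon-free air or 10 ppm ethylene, with 2 libraries in each of the 4 groups. Each genotype is represented by 1 numbered line, and wild-type libraries were not analysed here. The title of the series sets the question as the part of PDC in the nucleus in transcription under ethylene, and the comparison made here is of retrograde genes between the lines and treatments.

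When mitochondrial function is disturbed in plants, nuclear genes for mitochondrial proteins are induced. NAC17 and NAC13 are transcription factors held in the membrane of the endoplasmic reticulum until they are released to the nucleus, and they bind a short palindrome-like sequence, the mitochondrial dysfunction motif, in the promoters of their targets. The alternative oxidases pass electrons from ubiquinol straight to oxygen, and AOX1A is the member of that family best known for its induction. NDB2 is an external NAD(P)H dehydrogenase that feeds the same route.

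Total counts ran from 11522823 to 18601837 per library. PORA and PORB, protochlorophyllide reductase genes of dark-grown cotyledons, were at 1284 to 1786 and 1926 to 2641 CPM (counts scaled to library size), and ELIP1, a gene induced by light, was at 4.95 to 16.3 CPM. The PDC gene E1 ALPHA was at 19.2 to 23.1 CPM in the 4 libraries of e1e2 and 214 to 231 CPM in those of e2e3, and mtLPD2, which encodes an E3 subunit, at 131 to 150 and 27.4 to 40.4 CPM. The E2 subunit genes LTA3, AT3G13930 and AT1G54220 were at 83.4 to 94.9, 167 to 198 and 17.0 to 20.5 CPM across the 8 libraries. Since e2-2 is shared by both lines and the labels do not tie it to a locus, these levels do not check it. EFE, an ACC oxidase gene that responds to ethylene, was at 114 to 135 CPM in air and 785 to 836 CPM in ethylene. Nothing in the labels ties the replicates to separate plantings, so a p-value measures only how far these libraries spread, which may be technical. Fewer cells of a type and less RNA per cell cannot be told apart in whole seedlings.

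The promoters are shown first, since the motif links several of the genes. Both forms of the mitochondrial dysfunction motif, CTTG and CAAG with 5 bases between them or CTTG and CACG with 5 bases between them, were searched on both strands from 250 bases before to 50 after each annotated start in the TAIR10.1 RefSeq genome. The first form reads as itself on the opposite strand and was counted once, and the matches did not overlap each other. At least 1 match lay in 6 of the 10 genes (60%), against 392 of 27443 protein-coding genes (1.43%). The motif was described from genes of this response, AOX1A and UPOX among them, so the difference is not independent of how the set was made. Each stretch below reads along the strand of its gene, with the match in capitals.
AOX1A, chr3:7906510-7906538, plus strand: atctagctCTTGGCGACCACGcaagtatc
AOX1A, chr3:7906537-7906565, plus strand: tcttccatCTTGCTCTCCAAGaaaaatct
AOX1B, chr3:7903971-7903999, plus strand: tgtcttttCGTGTGCTACAAGtcttttag
NAC17, chr1:12451287-12451315, plus strand: acctctgtCGTGTCAGACAAGaatgttgg
UPOX, chr2:9254319-9254347, plus strand: tttagtaaCTTGCTCTCCAAGgagatcta
AT5G51440, chr5:20891045-20891073, plus strand: ttattttaCTTGGAGACCACGcagttcta
NDB2, chr4:2572340-2572368, plus strand: cgatctggCTTGGCCACCAAGattgtttg
The first AOX1A match began at base -3 and the second at base 25 counted from the annotated start. The first therefore spans the start, and the second lies wholly in the transcribed part. In UPOX the match began at -51, in NDB2 at -79, in NAC17 and AT5G51440 at -110 and in AOX1B at -118. The matches of AOX1B and NAC17 are the CACG form on the opposite strand. AOX1C, AOX1D, NAC13 and BCS1 held neither form in this window, which says only that these letters are absent from it. In the 1000 bases before the start, a window chosen after the first search, 5 of the 10 genes held a match against 4.4% of protein-coding genes. AOX1A was not among them, since its first match runs past the start and its second lies beyond it.

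AOX1A was the most abundant of the 10 in every group when levels were compared per length. Its mean was 55.6 ± 0.044 FPKM (CPM per kilobase of exonic length, SD, n = 2) in e1e2 in air, 62.0 ± 1.25 in e1e2 in ethylene, 65.7 ± 0.0088 in e2e3 in air and 67.6 ± 0.218 in e2e3 in ethylene. An SD of 2 values can fall below counting error by coincidence, so the smallest of these do not measure precision. NAC17, UPOX and NDB2 came next, between 25.7 and 43.4 FPKM in all libraries, followed by NAC13 at 14.9 to 23.0, AT5G51440 at 7.70 to 15.7 and BCS1 at 3.35 to 8.03 FPKM. UPOX ranked 3 in both air groups and 2 in both ethylene groups. The libraries of neighbours in this order overlapped for NAC17 and NDB2 in both ethylene groups, for UPOX and NDB2 in e2e3 in air, for AT5G51440 and BCS1 in e2e3 in air, and between AOX1B and one of AOX1C or AOX1D in every group. AOX1A, on chromosome 3 from 7906521 to 7908746, lies 944 bases beyond the end of AOX1B, which spans 7904097 to 7905576.

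**Figure D1:**
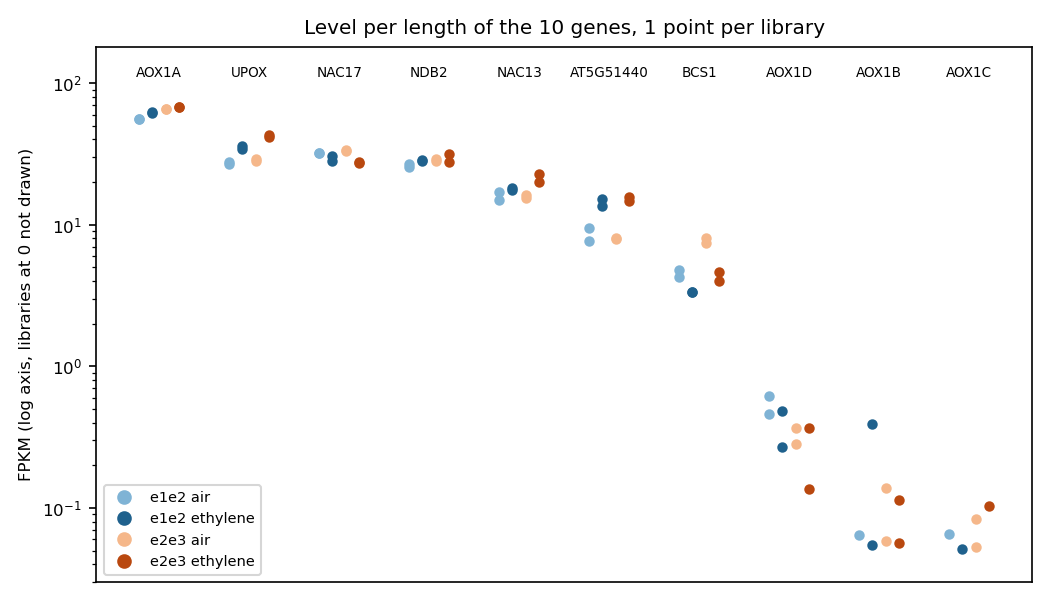
Level per length of the 10 genes, with the genes in order along the horizontal axis and FPKM on a log vertical axis, 1 point per library coloured by group. AOX1A lies at 55.6 to 67.7 FPKM in all 8 libraries, while AOX1B, AOX1C and AOX1D stay under 0.62 FPKM.

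The other alternative oxidases of the set were near the limit of detection. AOX1D had between 3 and 12 counts per library, which is 0.209 to 0.945 CPM. AOX1B had 0 and 1 counts in e1e2 in air, 1 and 7 in e1e2 in ethylene, 1 and 3 in e2e3 in air, and 1 and 2 in e2e3 in ethylene. AOX1C had at most 2 counts in any library and 7 in all. AOX1B and AOX1C fell below the expression filter and were not tested. For AOX1B the ratio of ethylene to air was 6.53 in e1e2 (95% interval 0.876 to 290) and 0.828 in e2e3 (0.121 to 4.90), from summed counts by an exact conditional binomial interval that covers counting error only. No difference in AOX1B was detectable at this depth. A group with 0 counts could still hold 3, or 0.0947 to 0.125 CPM by group. Together with AOX2, a further oxidase gene at 1.48 to 4.17 FPKM, AOX1A made up 93.3% to 97.4% of the summed FPKM of the 5 genes in each library.

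In e1e2, ethylene raised AT5G51440, UPOX and AOX1A and lowered BCS1. Of the 8 tested genes, 3 rose and 1 fell (edgeR quasi-likelihood test, adjusted p under 0.05), while 39.2% of all 20193 tested genes were called. The share rising was 18.3% over all genes and the share falling 20.9%. The median log2 change was 0.14 for the 8 genes and 0.01 for all genes tested. The libraries of air and ethylene did not overlap for 7 of the 8, against 66.8% of all genes.

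AT5G51440 encodes a small heat-shock protein of mitochondria and changed most. It was at 10.5 and 8.59 CPM in air and at 16.9 and 15.0 CPM in ethylene, so that both ethylene libraries lay above both air libraries. The log2 change was 0.75 ± 0.13 (SE, adjusted p = 4.49e-07), or 1.68-fold. UPOX, a gene induced by oxidative stress whose protein is mitochondrial, was at 19.9 and 20.2 CPM in air and 25.1 and 26.4 CPM in ethylene. The groups did not overlap, and the log2 change was 0.36 ± 0.10 (adjusted p = 0.00123).

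AOX1A was at 98.1 and 98.2 CPM in air and at 111 and 108 CPM in ethylene, a narrow but complete separation. Its log2 change was 0.16 ± 0.05 (adjusted p = 0.00715), or 1.11-fold. The call was lost with DESeq2 (adjusted p = 0.0561) and without ethylene replicate 1 (0.0919), in a range of 6.66e-05 to 0.0919 over the alternatives. BCS1, an AAA ATPase of the outer mitochondrial membrane, was at 11.4 and 12.8 CPM in air and at 8.89 and 8.93 CPM in ethylene. It was lower in both ethylene libraries, with a log2 change of -0.44 ± 0.14 (adjusted p = 0.00629), and lost its call with DESeq2 (0.0681) and without air replicate 2 (0.118), in a range of 0.00591 to 0.118.

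The remaining tested genes did not pass in e1e2. NAC13 was at 29.2 and 33.5 CPM in air and 34.7 and 35.8 CPM in ethylene (log2 change 0.17, 95% interval 0.0036 to 0.33, adjusted p = 0.0999), and passed without air replicate 2 (0.0293) and with library size as the only scaling (0.0161), over a range of 0.0161 to 0.633. NAC17 was at 83.9 and 83.7 CPM in air and 79.8 and 74.6 CPM in ethylene (-0.12, adjusted p = 0.0800). NDB2 was at 65.7 and 68.5 CPM in air and 72.7 and 73.3 CPM in ethylene (0.12, adjusted p = 0.0976), and passed with library size alone (0.00642, range 0.00642 to 0.367). For these 3 genes the groups did not overlap. AOX1D changed by -0.52 ± 0.57 on the log2 scale, with overlapping libraries.

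**Figure D2:**
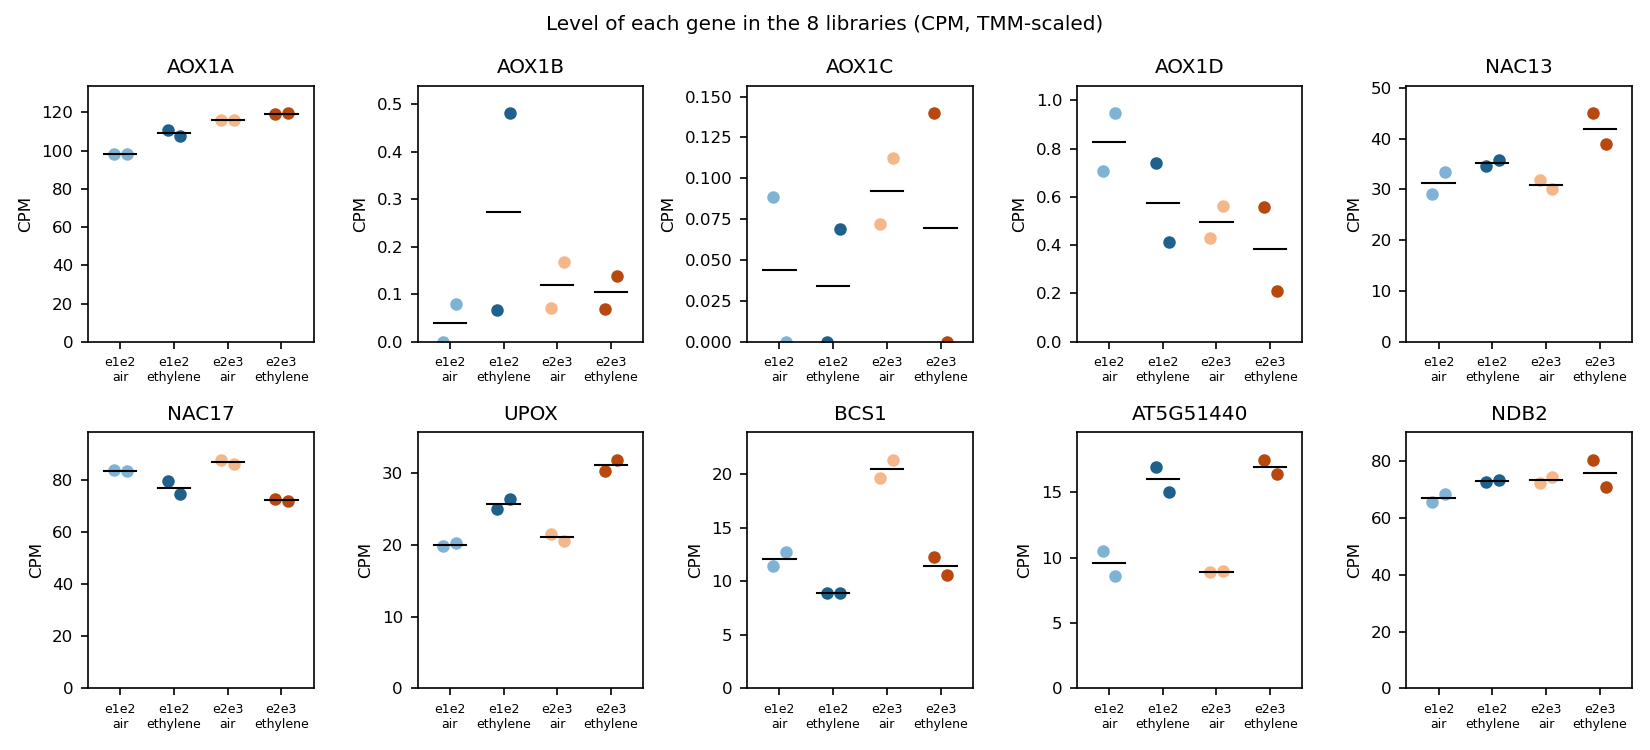
CPM over TMM-scaled library sizes of each of the 10 genes by group, with 1 point per library and a bar at the group mean of 2 libraries; each panel has its own vertical axis from 0. BCS1 is highest in the 2 air libraries of e2e3, at 19.6 and 21.3 CPM, and AT5G51440 is higher in all 4 ethylene libraries than in all 4 air libraries.

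In e2e3, ethylene raised AT5G51440, UPOX and NAC13 and lowered BCS1 and NAC17. Of the 8 tested genes 3 rose and 2 fell, while 44.0% of all genes tested were called, 20.3% higher and 23.6% lower. The median log2 change was 0.04 for the 8 genes and 0.01 for all genes. The libraries of the treatments did not overlap for 6 of the 8, against 69.9% of all genes.

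AT5G51440 was at 8.91 and 8.95 CPM in air and 17.5 and 16.4 CPM in ethylene, a log2 change of 0.92 ± 0.13 (adjusted p = 5.63e-11), or 1.89-fold. UPOX was at 21.5 and 20.6 CPM in air and 30.4 and 31.9 CPM in ethylene, and its log2 change was 0.57 ± 0.09 (adjusted p = 7.53e-09), or 1.48-fold. Both genes were higher in both ethylene libraries of this line, as in e1e2.

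The regulators moved in opposite directions in e2e3. NAC13 was at 31.8 and 30.1 CPM in air and 45.0 and 39.0 CPM in ethylene, a log2 change of 0.44 ± 0.08 (adjusted p = 1.73e-07), or 1.36-fold. NAC17 was at 87.9 and 86.5 CPM in air and 72.9 and 72.1 CPM in ethylene, a log2 change of -0.27 ± 0.05 (adjusted p = 8.17e-06), or 1.20-fold lower. Neither pair of groups overlapped. NAC17 is known to be controlled mainly by release of its protein from the membrane, which RNA levels do not measure.

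BCS1 fell by 0.85 ± 0.12 on the log2 scale in e2e3 (adjusted p = 5.99e-11), from 19.6 and 21.3 CPM in air to 12.2 and 10.6 CPM in ethylene. Its level in ethylene overlapped that of e1e2 in air. AOX1A was at 116 CPM in both air libraries and at 119 and 120 CPM in ethylene, a log2 change of 0.04 ± 0.05 (adjusted p = 0.523, range over the alternatives 0.0216 to 0.655, with the lowest under library size alone). NDB2 was at 72.3 and 74.4 CPM in air and 80.5 and 71.0 CPM in ethylene, and its libraries overlapped. The rises of 3 genes and falls of 2 in e2e3 kept their calls under every alternative listed in the processing summary.

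**Figure D3:**
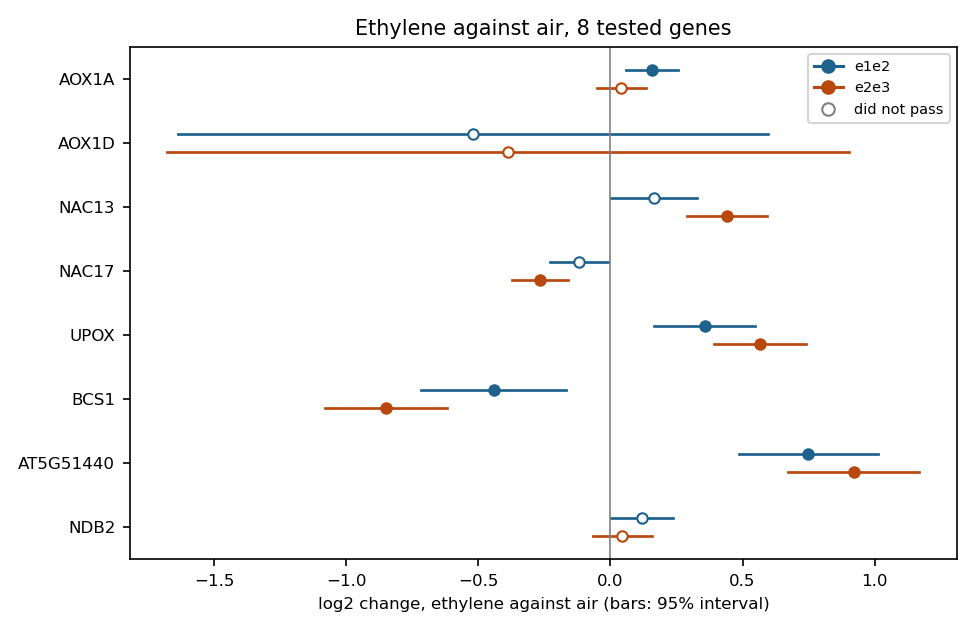
Log2 change with ethylene against air of the 8 tested genes (horizontal axis) in e1e2 (blue) and e2e3 (orange), with 95% intervals; open points did not pass the test. AT5G51440 and UPOX lie right of 0 and BCS1 left of 0 in both lines, and AOX1D has intervals wider than those of the other genes.

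The ethylene responses of the lines were compared directly by the interaction, for which 2.80% of all genes were called. None of the 8 genes passed by edgeR, 2 were below an unadjusted p of 0.05, and none passed with DESeq2. The difference (e2e3 minus e1e2) was 0.28 for NAC13 (95% interval 0.054 to 0.50, unadjusted p = 0.0151, adjusted p = 0.199) and -0.41 for BCS1 (-0.77 to -0.045, unadjusted p = 0.0276, adjusted p = 0.270). For AT5G51440 it was 0.17 (-0.20 to 0.54), for UPOX 0.21 (-0.052 to 0.47), for AOX1A -0.12 (-0.25 to 0.019), for NAC17 -0.15 (-0.30 to 0.0048) and for NDB2 -0.075 (-0.24 to 0.086). These intervals leave room for differences in either direction for most of the genes, and a call in one line and not in the other does not show that the lines responded differently.

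In the authors' deposited table for e1e2, AT5G51440 was the one gene of the set below an adjusted p of 0.05 (0.00409, log2 change 0.74). In the authors' deposited table for e2e3, NAC13 (0.00185), NAC17 (0.0063), UPOX (0.000293), BCS1 (2.87e-05) and AT5G51440 (2.14e-05) were below it. AOX1B and AOX1C had no adjusted p in either table, nor had AOX1D in that for e2e3. The share of all genes below 0.05 in these tables was not counted, so their numbers of genes do not show a line difference. DESeq2 run here on all 8 libraries called 5137 genes in e1e2 and 5924 in e2e3. None of the 10 genes was among the 1242 in the authors' deposited table of genes called in wild type. The count tables hold 36799 genes, so a set of 10 can easily miss so short a list. Its name also points to a fold-change cut, and the largest ethylene change of a tested member in these lines was 1.89-fold. Absence from it does not show that these genes do not respond in wild type.

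Samples in ethylene also differed from those in air in ways beyond these genes. The TMM scaling factors were 0.956 to 0.998 in air and 1.01 to 1.04 in ethylene, and the 10 most abundant genes held 5.13% to 5.34% and 4.67% to 5.13% of the counts. Of the 5 tissue genes listed (PORA, PORB, ETR1, CRA1 and ELIP1), 4 rose and 1 fell in e1e2 and 3 rose in e2e3, with ELIP1 at 4.95 to 7.42 CPM in air and 14.5 to 16.3 CPM in ethylene. Over all genes tested, 39.2% were called in e1e2 and 44.0% in e2e3. Their part in the changes of the retrograde genes was not tested.

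Between the lines in air, BCS1 and AOX1A were higher in e2e3 and the other tested genes did not pass. These 2 of the 8 (25.0%) compare with 14.8% of all genes called in either direction, 1818 of 20193 higher and 1177 lower, and the libraries of the lines did not overlap for 6 of the 8 against 51.7% of all genes. BCS1 was at 11.4 and 12.8 CPM in e1e2 and at 19.6 and 21.3 CPM in e2e3, a log2 difference of 0.76 ± 0.12 (adjusted p = 6.00e-08), or 1.70-fold. AOX1A was at 98.1 and 98.2 CPM in e1e2 and at 116 CPM in both libraries of e2e3, a log2 difference of 0.24 ± 0.05 (adjusted p = 5.22e-05), or 1.18-fold. The differences of the other 6 genes ran from -0.71 for AOX1D, with an SE of 0.57, to 0.13 for NDB2. The air libraries used here also enter the ethylene comparisons, so that a high air level and a fall with ethylene are not independent results for BCS1.

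In ethylene, NAC13 and UPOX were higher in e2e3, while 6.56% of all genes were called in either direction, 857 of 20193 higher and 468 lower. NAC13 was at 34.7 and 35.8 CPM in e1e2 and 45.0 and 39.0 CPM in e2e3, a log2 difference of 0.25 ± 0.08 (adjusted p = 0.0216, range 0.00934 to 0.475). UPOX was at 25.1 and 26.4 CPM in e1e2 and 30.4 and 31.9 CPM in e2e3, a log2 difference of 0.28 ± 0.09 (adjusted p = 0.0311, range 0.0209 to 0.273). Both calls were lost with DESeq2, with library size alone and without e2e3 ethylene replicate 1, e1e2 ethylene replicate 1 or e1e2 ethylene replicate 2, and UPOX was also lost without e2e3 ethylene replicate 2. BCS1 was at 8.89 and 8.93 CPM in e1e2 and 12.2 and 10.6 CPM in e2e3, and AOX1A at 111 and 108 and at 119 and 120 CPM. Neither passed (adjusted p = 0.105 and 0.103), although their libraries did not overlap, as for 5 of the 8 genes and 47.8% of all genes.

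A separate list of 14 other genes known from the retrograde response was compared between the lines in the same fit. It was chosen with earlier results of these data known, so its counts are not independent evidence of a line difference. In air, 12 of the 14 were higher in e2e3 and none was lower, with a median log2 difference of 0.54 against 0.01 over all genes tested. In ethylene, 10 were higher and none lower, with a median of 0.52 against -0.0030 over all genes. Of all 20193 genes tested, 1818 were higher in e2e3 in air and 857 in ethylene. Both counts of the list include AT12CYS-2 and AT2G04070. In e1e2 these had at most 7 and 10 counts in any library, and they passed the expression filter through the e2e3 libraries. Neither could therefore have been counted as lower in e2e3. With DESeq2, 7 of the 10 that received an adjusted p were higher in air and 6 of 9 in ethylene, beside 908 and 440 higher over all genes.

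AT2G04070, a transporter gene of the MATE family, was at 0.618 and 0.630 CPM in e1e2 and at 9.41 and 8.89 CPM in e2e3 in air, a log2 difference of 3.85 ± 0.29 (adjusted p = 8.10e-27). It lies in a group of near-identical genes with DTX1 (AT2G04040) and AT2G04050. Since reads that map to several places were left out, the level of each rests on reads placed at it alone. How well such reads separate these genes is uncertain. AT12CYS-2, which encodes a cysteine-rich mitochondrial protein, had 1 and 0 counts in e1e2 and 15 and 26 counts in e2e3 in air. The ratio of summed counts was 31.1, with an exact 95% interval of 5.27 to 1257 for counting error only.

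UGT74E2, a glycosyltransferase gene for an auxin precursor, was at 44.3 and 41.7 CPM in e1e2 and 77.1 and 79.9 CPM in e2e3 in air, a log2 difference of 0.87 ± 0.06 (adjusted p = 1.42e-28). AT5G43450, a predicted dioxygenase gene, was at 10.2 and 10.7 CPM in e1e2 and 23.7 and 23.3 CPM in e2e3 in air, a log2 difference of 1.17 ± 0.11 (adjusted p = 8.16e-19). CRF6, a cytokinin response factor gene, and DTX1 did not pass in air, with log2 differences of -0.13 and 0.36.

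**Figure D4:**
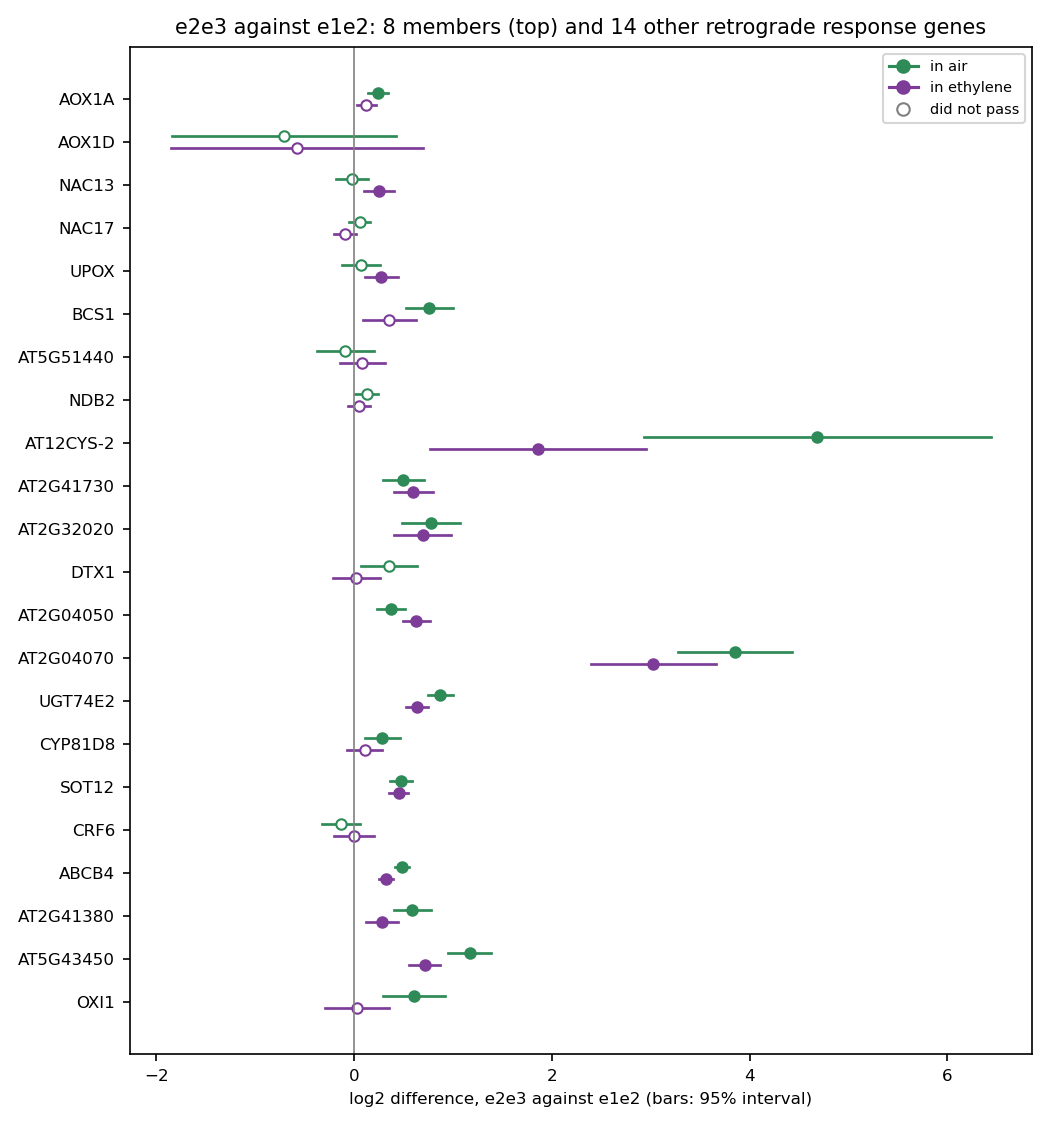
Log2 difference of e2e3 against e1e2 (horizontal axis) in air (green) and in ethylene (purple) for the 8 tested genes of the set, at the top, and the 14 other retrograde response genes, with 95% intervals; open points did not pass the test. Of the 14 other genes, a list chosen with earlier results known, 12 are filled in air and 10 in ethylene, all right of 0. AT12CYS-2 and AT2G04070 among them passed the expression filter through the e2e3 libraries.

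With ethylene, 6 of the same 14 genes rose and none fell in e1e2, where 39.2% of all genes tested were called. The largest rises were those of AT5G43450 (log2 change 1.36 ± 0.11) and DTX1 (0.81 ± 0.14), one of the near-identical genes named above. In e2e3, 6 rose and 3 fell, where 44.0% of all genes were called, and AT2G04070 fell by 0.93 ± 0.18 and OXI1, an oxidative-signal protein kinase gene, fell by 0.50 ± 0.15. The motif was found within 250 bases before and 50 after the start in 6 of the 14 (42.9%) and in none of 13 other regulators, against 1.43% of protein-coding genes. In the 1000 bases before the start, 4 of the 14 (28.6%) held a match, against 4.4% of protein-coding genes. Since the motif was described from genes of this response, the shares among the 14 are not independent of how the list was made.

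Of the 12 tested other regulators of the response, 1 passed between the lines in each treatment, where 14.8% of all genes were called in air and 6.56% in ethylene. This was NAC53, a close relative of NAC78, at 42.6 and 42.5 CPM in e1e2 and 57.0 and 57.5 CPM in e2e3 in air (log2 difference 0.43 ± 0.07) and with a difference of 0.21 ± 0.07 in ethylene. With ethylene, 2 of the 12 rose and 1 fell in e1e2, where 39.2% of all genes were called. In e2e3, 2 rose and 3 fell, where 44.0% were called. WRKY40, a transcription factor known to repress part of this response, rose in both lines, with log2 changes of 1.13 ± 0.21 in e1e2 and 1.04 ± 0.20 in e2e3. NAC82 rose (0.24 ± 0.05 and 0.28 ± 0.05) and WRKY15 fell (-0.33 ± 0.08 and -0.28 ± 0.08) in the same order of lines. In e2e3, NAC53 (-0.22 ± 0.06) and RCD1, whose protein binds NAC13 (-0.13 ± 0.04), fell as well. MYB29 had no counts in any library.

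Of 8 other genes of alternative respiration, 1 fell and none rose with ethylene in e1e2, where 39.2% of all genes were called. In e2e3, 1 rose and 1 fell, where 44.0% were called. AOX2 fell in both lines. It was at 3.98 and 2.84 CPM in e1e2 in air and 1.95 and 2.27 CPM in ethylene (log2 change -0.68 ± 0.27, adjusted p = 0.0375), and at 5.10 and 5.52 CPM in e2e3 in air and 2.51 and 2.02 CPM in ethylene (-1.23 ± 0.24, adjusted p = 2.64e-06). AOX2 was also higher in e2e3 than in e1e2 in air (0.65 ± 0.23), as 1 of the 8 called there against 14.8% of all genes. NDC1, a plastid and mitochondrial NAD(P)H dehydrogenase gene, rose in e2e3 (0.32 ± 0.10). In ethylene, NDA1 (0.86 ± 0.29) and NDB3 (0.65 ± 0.18), internal and external NAD(P)H dehydrogenase genes, were higher in e2e3. They were 2 of the 8, against 6.56% of all genes called. NDA1 was at 1.95 and 1.72 CPM in e1e2 and 4.33 and 2.37 CPM in e2e3 (adjusted p = 0.0452). These calls were not checked under the alternatives.

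Of 15 genes for mitochondrial chaperones and proteases, 7 rose and 1 fell with ethylene in e1e2 and 5 rose and none fell in e2e3. The shares of all genes tested were 18.3% called higher and 20.9% called lower for e1e2, with 20.3% called higher and 23.6% called lower for e2e3. FTSH3, a protease of the inner membrane, rose by 0.47 ± 0.05 in e1e2 and 0.29 ± 0.05 in e2e3 on the log2 scale, and MTHSC70-2, a matrix chaperone, by 0.35 ± 0.08 and 0.31 ± 0.07. HSP60, another matrix chaperone, rose by 0.22 ± 0.06 and 0.37 ± 0.06, and PHB3, a prohibitin gene, by 0.23 ± 0.07 and 0.32 ± 0.07, in the same order of lines. In e1e2, MTHSC70-1 rose by 0.30 ± 0.05 and CLPB4 by 0.26 ± 0.08. The gene that fell in e1e2 was CLPP2, at 36.0 and 34.5 CPM in air and 31.6 and 29.5 CPM in ethylene. The median log2 changes of this list were 0.23 in e1e2 and 0.17 in e2e3, against 0.01 over all genes tested in each line. Between the lines 1 of the 15 passed in each treatment, where 14.8% of all genes were called in air and 6.56% in ethylene. HSP60 was lower in e2e3 in air (-0.21 ± 0.06) and FTSH3 was lower in e2e3 in ethylene (-0.18 ± 0.05).

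Of 14 genes of the cytochrome pathway, complexes I and II and ATP synthase, 1 rose with ethylene in e1e2 (SDH1-1, 0.22 ± 0.04). In e2e3, SDH1-1 rose (0.12 ± 0.04) and SDH2-1 fell (-0.19 ± 0.05). Of all genes tested, 39.2% were called with ethylene in e1e2 and 44.0% in e2e3. Between the lines, 6 of the 14 were higher in e2e3 in air and 4 in ethylene, and none was lower, where 1818 and 857 of all 20193 genes tested were higher. The largest of these differences were 0.22 ± 0.05 for SDH2-1, an iron-sulfur subunit of complex II, in air and 0.39 ± 0.11 for CYTC-2, a cytochrome c gene, in ethylene.

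**Figure D5:**
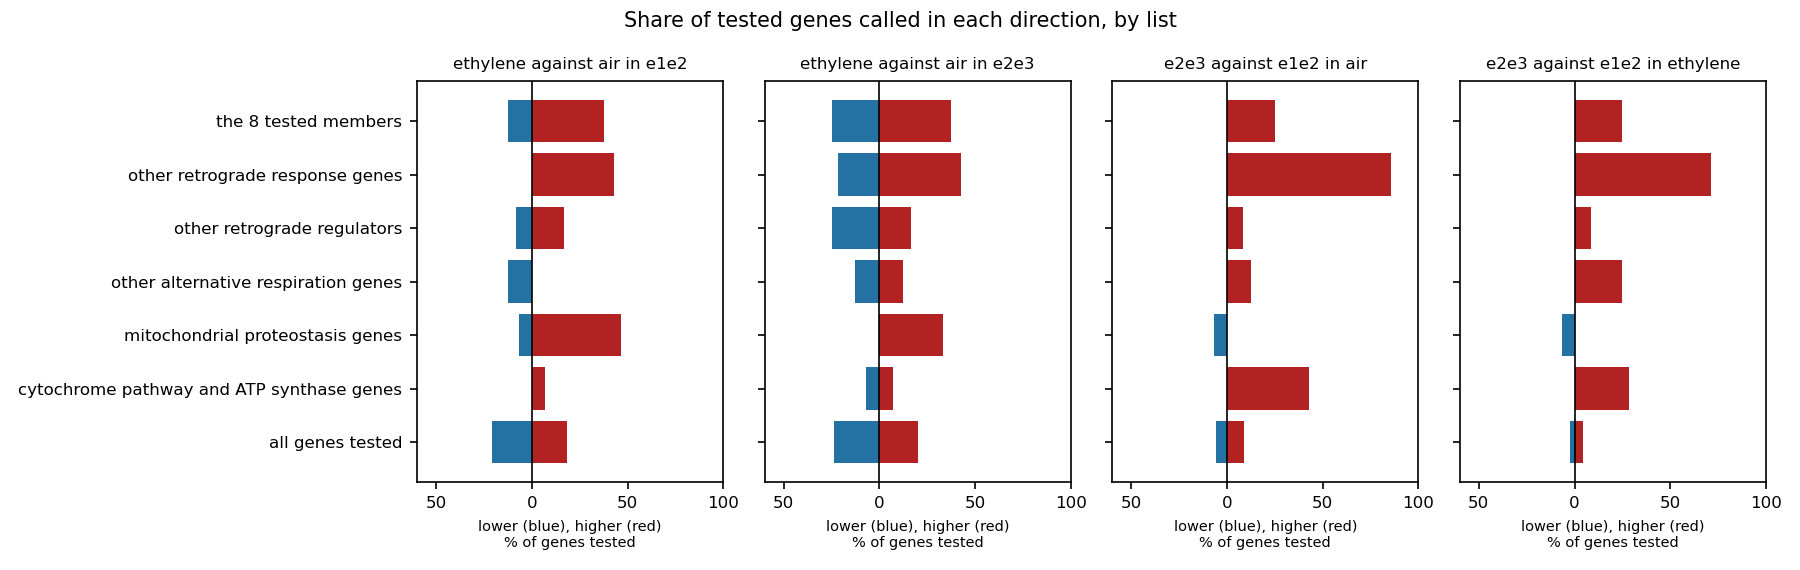
Share of the tested genes of each list called higher (red, right) and lower (blue, left) in 4 comparisons, in percent of genes tested, with all 20193 genes in the bottom bar. The other retrograde response genes reach 12 of 14 higher in e2e3 in air, where 1818 of all 20193 genes were called higher. The 12 include AT12CYS-2 and AT2G04070, which passed the expression filter through the e2e3 libraries. The lists were chosen with earlier results of these data known.

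Genes whose CPM pattern over the 8 libraries was most like that of a member were found by Pearson correlation of log2 CPM, as a description with no test, since the 8 points share lines and treatments. XTH14 (r = 0.994) and GR1 (0.987) were nearest to AOX1A, GCD1 (0.997) to AT5G51440, LCR69 (0.992) to UPOX, TI1 (0.988) and TMO6 (0.987) to BCS1, MORF3 (0.978) to NAC13 and ATCSLB05 (0.990) to NAC17. None of these is on the lists of retrograde, respiratory or chaperone genes used here.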

How the data were processed

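The authors deposited gene counts of 8 libraries as whole numbers without normalization. Per the file headers, featureCounts 2.0.1 counted read pairs on Araport11 genes and transposons with no strand, multi-mapping or multi-overlap option. STAR, Trim Galore, FastQC and DESeq2, with the TAIR10 build, stand in the submitters' processing notes without settings. The authors' deposited DESeq2 tables give a log2 fold change with its standard error, p-value and adjusted p-value for ethylene against air in each line.

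From the counts, edgeR 4.0.16 in R 4.3.3 was run with TMM scaling, the default expression filter by group (20193 of 36799 genes kept, 8 of the 10 members), and robust quasi-likelihood F-tests in 1 fit of the 4 groups, with 4 residual degrees of freedom and a median prior of 218. Benjamini-Hochberg adjustment ran over all genes tested, with calls under 0.05. Standard errors were derived from each log2 fold change and its F. CPM used TMM-scaled library sizes, and FPKM divided these by exonic length. The precision follows depth: AOX1A had 12666 counts over all libraries and AOX1D 64.

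Chosen alternatives were RLE size factors, library size alone, DESeq2 1.42.0, no expression filter, a CPM of at least 1 in at least 2 libraries, only the groups compared, a replicate block, a fit without robust estimation and leaving out each library. The script was tested on simulated counts. Same-numbered replicates did not deviate together (correlations -0.030 to 0.0009), so the block stayed an alternative. Starts and ends of 99.5% of 36632 loci equal those of TAIR10.1, from which sequences were read. The members and lists were chosen with earlier results of these data known. From the other lists, named genes came from the up to 4 called with the largest change per comparison, not all of which are named. Some were also given for the other line. RCD1, CRF6, DTX1 (in air) and CLPP2 were named after their values were seen.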

Additional observations from a re-analysis of the deposited data

Results flagged for a closer look

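AT5G43450, one of the other retrograde response genes, was picked out because its ethylene response differed between the lines by the interaction test. The difference (e2e3 minus e1e2) was -0.46 ± 0.14 on the log2 scale (adjusted p = 0.0478), from 10.2 and 10.7 to 27.5 and 26.0 CPM in e1e2 and from 23.7 and 23.3 to 45.6 and 42.2 CPM in e2e3. The call was lost under all alternatives except leaving out e2e3 ethylene replicate 1, with adjusted p from 0.0438 to 0.218, and DESeq2 gave it no adjusted p. These alternatives were chosen after seeing the data for this gene.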

How the results depend on the processing

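The number of the 8 genes called fell from 4 to 2 with DESeq2 for ethylene in e1e2, and from 2 to 0 for the lines in ethylene with DESeq2 and with library size alone; leaving out 1 library gave 0 to 2 there. Library size alone raised it from 4 to 6 with ethylene in e1e2, adding NAC13 and NDB2, and from 5 to 6 in e2e3, adding AOX1A. For the 14 other retrograde response genes, tried after seeing the data, DESeq2 called 7 in air and 6 in ethylene. The cause was not tested. The replicate block changed none of these counts (4, 5, 0, 2 and 2 members). Values changed sign in 11 cases, each without 1 library and none for a called value. Over the libraries left out, NDB2 ran from -0.044 to 0.13 with ethylene in e2e3, from -0.038 to 0.14 between lines in ethylene and from -0.17 to 0.014 in the difference of responses. AOX1D ran from -1.23 to 0.15 with ethylene in e2e3 and from -0.72 to 0.67 in the difference, NAC13 from -0.13 to 0.084 and AT5G51440 from -0.23 to 0.041 between lines in air.

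Over all genes, library size alone turned 3694 higher and 4217 lower calls into 5220 and 3492 in e1e2, 4109 and 4767 into 5874 and 3773 in e2e3, 1818 and 1177 into 1185 and 1756 between lines in air, and 857 and 468 into 606 and 798 in ethylene, with median shifts of 0.07, 0.08, -0.05 and -0.03. DESeq2 called 5137, 220, 1422 and 558 genes where edgeR called 7911 (ethylene in e1e2), 566 (difference), 2995 (lines in air) and 1325 (lines in ethylene). With 3 to 12 counts per library for AOX1D and fewer for AOX1B and AOX1C, changes in these genes were not detectable at this depth.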
